A study of Danio rerio with 12 samples.

Results

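The pooled lead effect is the difference between all 6 arrays of larvae exposed to lead (Pb) and all 6 arrays of control larvae, taken over both ages of the experiment with age as a covariate. It draws on 12 of the 12 arrays in the series. The 4 groups were Pb at 72 hours postfertilization (hpf), control at 72 hpf, Pb at 120 hpf, and control at 120 hpf, with 3 arrays each. Wild-type zebrafish of the AB strain were kept in 100 ppb lead acetate or in water with 0 ppb from about 1 hpf until they were collected, so the older larvae had also been exposed for longer, and age and length of exposure cannot be told apart. Each array holds the RNA of 1 pool of 50 whole larvae, counted by the study as 1 biological replicate. A pool averages over all tissues, and fewer cells of a type and less RNA per cell cannot be told apart in it.

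Lead is a divalent metal that takes the place of calcium and zinc in proteins. It is known to block the NMDA type of glutamate receptor, to disturb calcium-dependent transmitter release, and to inhibit enzymes of heme synthesis, and the developing brain is its best known target. By 72 hpf a zebrafish larva has hatched, its heart, muscle, lens, and blood are at work, and its first axon tracts are laid. By 120 hpf it swims, sees, and begins to feed. A gene that responds to Pb itself, whatever the age, would differ from control in the same direction at both ages, and the pooled comparison looks for such genes.

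The one-color oligonucleotide arrays measured the expression of 37157 targets, where a target is 1 transcript or predicted transcript. A gene symbol was available for 2663 targets (7.17%), with 2650 different symbols. Values are log2 intensities, averaged over the probes of a target, and 1 unit is a doubling of signal. The median intensity per array, as deposited, ran from 376 to 669.9. Arrays with the same age and number (1 Pb and 1 control array) had nearly equal medians of deposited values. The ratio of Pb over control is therefore also given within each of these 6 pairs, numbered 1 to 3 at each age. As a check of the labelled tissue, transcripts of several tissues of a whole larva gave signal, with mean log2 intensities of 14.86 for the muscle actin acta1b, 14.75 for the lens crystallin crygm2d5, 14.45 for the pancreatic protease prss59.1, 14.20 for the embryonic globin hbae3, and 12.50 for the neuronal stathmin stmn2b. Not every such transcript was bright, and the globin targets hbbe3, hbaa2, and ba1l had 5.81, 5.87, and 6.27.

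No target passed the threshold of 0.05 in the pooled fit. limma called 0 of 37157 targets (0%), the smallest adjusted p was 0.997, and 719 targets (1.94%) had an unadjusted p below 0.05, of which 406 (1.09%) were higher and 313 (0.842%) lower with Pb. Of the 2663 named targets, 15 were among the higher and 17 among the lower ones. The balance of directions turned with the scaling, to 23 higher and 136 lower targets with the values as deposited and 50 higher and 281 lower with median centering. The methods' t-test on values with the age mean subtracted found 1266 targets (3.41%) below 0.05 and 0 after Benjamini-Hochberg adjustment. Its degrees of freedom did not allow for the subtracted mean, so its p values are somewhat too small and its count can be too large. The pooled log2 fold change lay between -1.69 and 1.42, with a median standard error of 0.179, and 50 targets were at least 1.5-fold higher and 572 at least 1.5-fold lower. In simulated data of the same size, the fit recovered 56 of 100 targets changed by 1 log2 unit and 98 of 100 changed by 2, with 7 false calls. Both sets were changed at once, with noise independent between targets and arrays, whereas the real arrays shared deviations across targets. The recovery is thus not a measure of the power of this comparison. Smaller differences were not simulated, and the genes below are described by the values of their arrays.

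The Pb difference had the same sign at both ages for 23099 targets (62.2%), 12785 (34.4%) higher and 10314 (27.8%) lower. In all 6 pairs the sign was the same for 1419 targets (3.82%), 917 higher (2.47%) and 502 lower (1.35%). Among named targets, 51 were higher and 38 lower in all 6 pairs, together 3.34%, a share close to that of all targets. For comparison, 521 targets (1.4%) had one sign in the 3 pairs of 72 hpf and the other in the 3 pairs of 120 hpf, and 46 of these were named. Pb and control arrays did not overlap at either age, in the same direction, for 63 targets (0.17%), 40 higher (0.108%) and 23 lower (0.0619%). Of these, 3 were named, dusp19b among the higher and casq1b and hyal1 among the lower ones. At a single age, 1747 targets (4.7%) did not overlap at 72 hpf and 1502 (4.04%) at 120 hpf. With 3 arrays against 3, groups can stand apart without an effect of Pb, so a lack of overlap is not evidence of a response. How far these shares differ from chance was not tested.

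**Figure D1:**
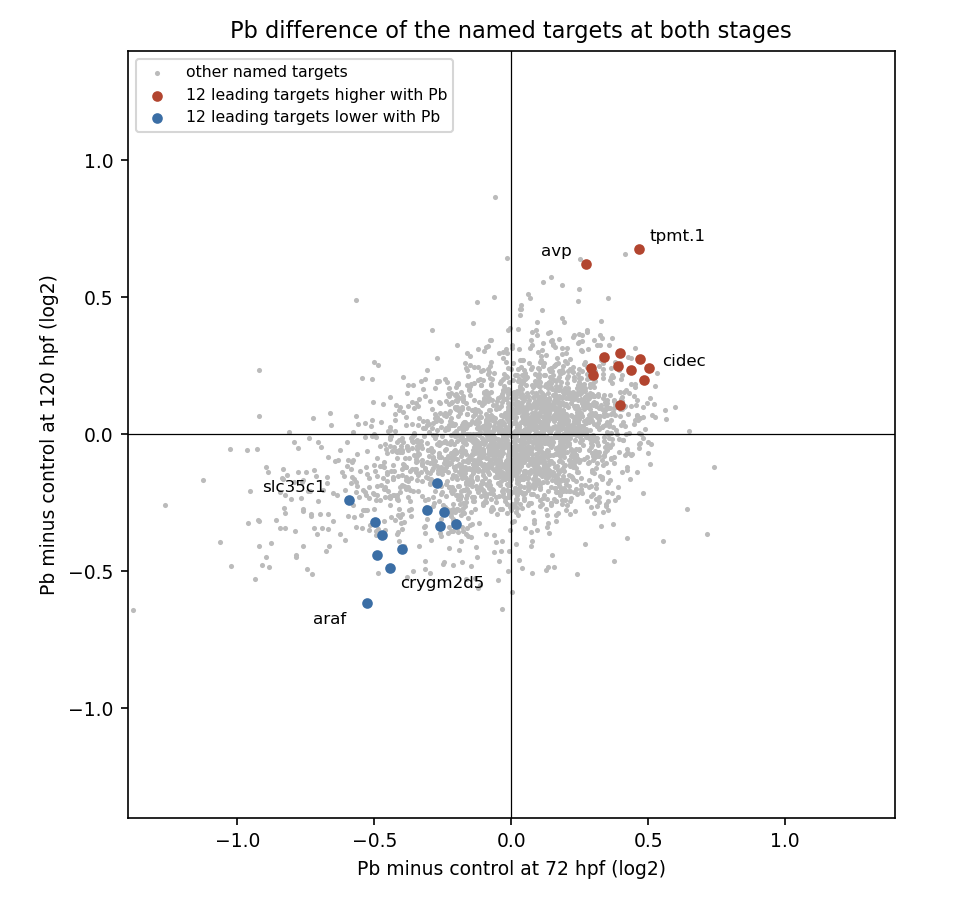
Pb minus control at 72 hpf (x axis) against Pb minus control at 120 hpf (y axis), both in log2 units, for the 2663 named targets. The 12 leading targets higher with Pb (red) lie in the upper right and the 12 leading lower ones (blue) in the lower left, since they were chosen for 1 sign in all 6 pairs, and tpmt.1 and araf are the farthest of each group from 0 at 120 hpf.

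The named genes that lead in each direction are the 12 with the smallest unadjusted p among named targets with the same sign in all 6 pairs. Their agreement in sign is how they were chosen and is not evidence of a response, and the adjusted p of every one of them was 0.997 in limma. The confidence intervals here and below come from the fit by which the genes were chosen. They are not adjusted for that choice, so an interval that leaves out 0 is not evidence of a response either. Among the higher genes, enzymes came first. tpmt.1 (NM_001002569) encodes thiopurine S-methyltransferase, which methylates sulfur-containing drugs. At 72 hpf its log2 intensities were 10.47, 9.99, and 10.54 in Pb pools, against 9.68, 9.77, and 10.15 in control pools. At 120 hpf the values were 10.47, 11.33, and 11.34 in Pb pools and 10.38, 10.26, and 10.47 in control pools. The Pb and control arrays overlapped at each age, at 120 hpf only in that Pb array 1 and control array 3 were level, and the pooled log2 fold change was 0.57 (SE 0.18, 95% confidence interval 0.19 to 0.95), a 1.49-fold difference. Within the pairs the log2 ratio ran from 0.09 to 1.07. galk1 (NM_001006002), the galactokinase that starts galactose breakdown, had 9.58, 9.43, and 9.95 in Pb pools against 9.12, 9.13, and 9.39 in control pools at 72 hpf, where the groups did not overlap. At 120 hpf galk1 had 9.17, 9.41, and 9.44 in Pb pools against 8.93, 9.30, and 9.08 in control pools, with overlap, and its pooled log2 fold change was 0.34 (SE 0.13, 95% confidence interval 0.05 to 0.63).

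dusp19b (NM_212979), a dual-specificity phosphatase known in mammals for acting on the JNK stress pathway, was the higher named gene whose groups stood apart at both ages. At 72 hpf its log2 intensities were 8.95, 8.88, and 9.25 in Pb pools, against 8.57, 8.79, and 8.54 in control pools. At 120 hpf the values were 9.12, 9.32, and 9.37 in Pb pools and 8.96, 8.90, and 9.06 in control pools. Every Pb array lay above every control array of its age, and the pooled log2 fold change was 0.35 (SE 0.12, 95% confidence interval 0.09 to 0.60). The differences at 72 and 120 hpf were 0.40 and 0.30, and the difference between the ages did not pass limma's test (adjusted p = 1.00).

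Genes of the nervous and sensory systems formed the next part of the higher group. avp (NM_178293) encodes the precursor of vasotocin, the fish counterpart of vasopressin, which is made by neurons of the hypothalamus. At 72 hpf its log2 intensities were 9.02, 9.13, and 9.50 in Pb pools, against 8.69, 8.96, and 9.18 in control pools. At 120 hpf the values were 10.00, 10.43, and 9.70 in Pb pools and 9.37, 9.77, and 9.12 in control pools. The control arrays spread over as wide a range as the difference, so the groups overlapped at each age, but the Pb array was the higher one in each pair, by 0.33, 0.18, 0.32 at 72 hpf and 0.63, 0.65, 0.58 at 120 hpf. The pooled log2 fold change of avp was 0.45 (SE 0.17, 95% confidence interval 0.07 to 0.82), and its pair ratios were at least 0.18. pou4f3 (NM_131278), a transcription factor of sensory hair cells, had pair ratios of 0.34, 0.26, 0.41 at 72 hpf and 0.07, 0.37, 0.41 at 120 hpf, and the pooled log2 fold change was 0.31 (SE 0.13, 95% confidence interval 0.03 to 0.59). htr5ab (NM_001007121), a serotonin receptor, and or30bu1 (NM_001089440), an odorant receptor, had pair ratios of 0.03 to 0.48 and 0.03 to 0.70. Both were dim, with mean log2 intensities of 7.33 and 5.89 against a median of 8.82 over all targets, and the files used here hold no detection call that would separate such values from background.

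The other leading genes above control had mixed roles. cidec (NM_001045047), which fuses lipid droplets, had a pooled log2 fold change of 0.37 (SE 0.18, 95% confidence interval -0.01 to 0.76), and its arrays did not overlap at 120 hpf, where the values were 7.35, 7.39, and 7.37 in Pb pools and 7.30, 6.94, and 7.15 in control pools. cidec was also dim, with a mean log2 intensity of 6.95 over 6 probes. hsp70.3 (NM_131397), a stress-inducible chaperone of the Hsp70 family, had pair ratios of 0.45, 0.17, 0.54 at 72 hpf and 0.27, 0.12, 0.35 at 120 hpf and a pooled log2 fold change of 0.32 (SE 0.17, 95% confidence interval -0.04 to 0.68). Its control arrays at 72 hpf ran from 9.74 to 10.45, a wider range than the Pb difference, and signal from near-identical Hsp70 copies on its probes was not tested for. ppp1r14d (NM_001089505), an inhibitor of protein phosphatase 1, had pair ratios of 0.06 to 0.44. rnf34a (NM_001030068), a RING-type ubiquitin ligase, had ratios of 0.15 to 0.31 in 5 pairs and 1.06 in pair 3 of 72 hpf. zp2.3 (NM_131828), an egg coat glycoprotein, was dim at 6.12 and had ratios of 0.01 to 0.52.

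**Figure D2:**
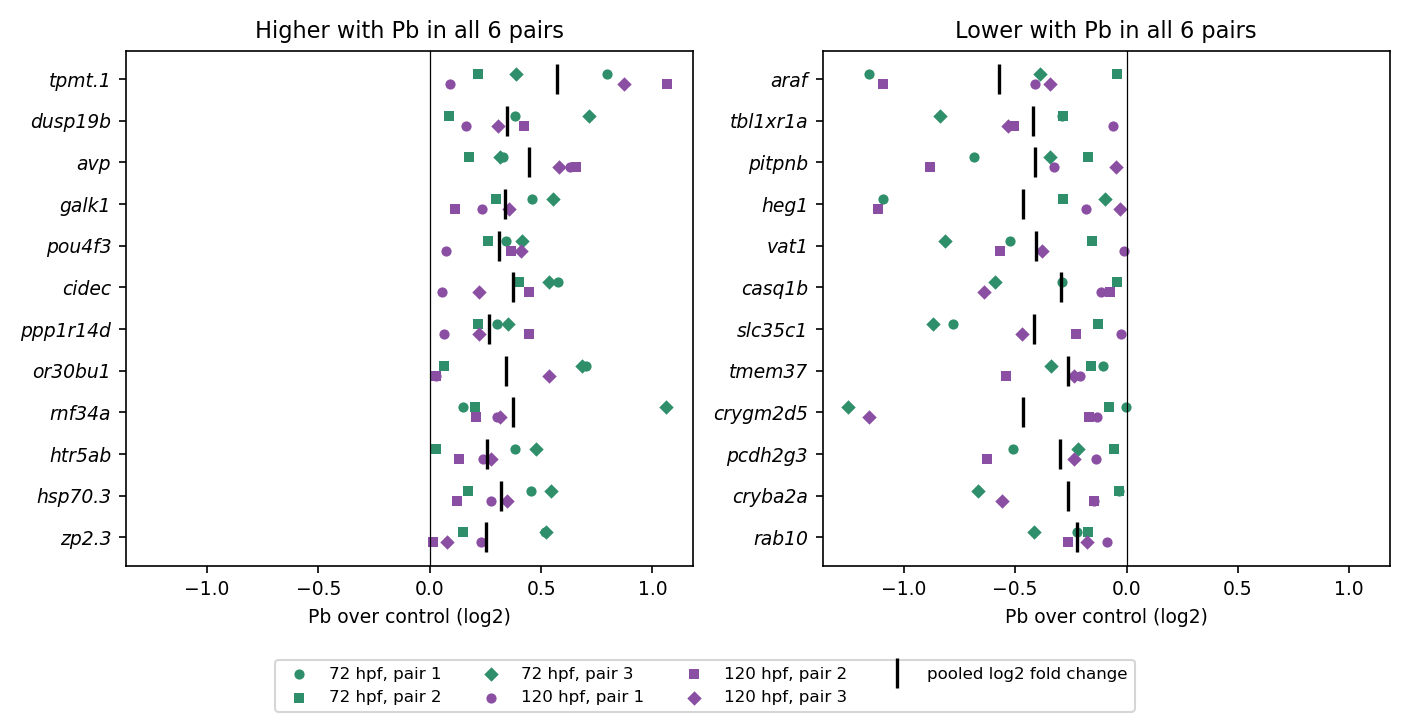
Log2 ratio of Pb over control within each of the 6 pairs (x axis) for the 12 leading genes in each direction (rows), with 72 hpf in green, 120 hpf in purple, a marker for each pair number, and a bar for the pooled log2 fold change. Several genes owe much of their pooled value to 1 or 2 pairs, such as rnf34a to pair 3 of 72 hpf (1.06) and crygm2d5 to pair 3 of both ages (-1.25 and -1.16), whereas the ratios of avp all lie between 0.18 and 0.65.

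The lower genes also had mixed roles. araf (NM_205743) encodes a Raf kinase of the growth factor pathway to ERK. At 72 hpf its log2 intensities were 7.73, 8.75, and 8.13 in Pb pools, against 8.88, 8.79, and 8.52 in control pools. At 120 hpf the values were 7.92, 7.79, and 7.71 in Pb pools and 8.33, 8.89, and 8.05 in control pools. At 120 hpf every Pb array lay below every control array, whereas at 72 hpf Pb array 2 was within the range of the control arrays. The pooled log2 fold change of araf was -0.57 (SE 0.19, 95% confidence interval -0.97 to -0.17), or 0.673 times control, and the ratios exceeded 1 log2 unit in pair 1 of 72 hpf (-1.16) and pair 2 of 120 hpf (-1.09). Over the alternative settings the pooled value of araf ran from -0.70 to -0.12. Over only its probes at most 500 nt from the last one, araf did not keep 1 sign in all 6 pairs. The same held with a trend on target length and signal removed. tbl1xr1a (NM_001020583), a subunit of the nuclear receptor corepressor complex, had 11.15, 11.30, and 10.41 in Pb pools against 11.44, 11.59, and 11.25 in control pools at 72 hpf. At 120 hpf it had 11.41, 10.96, and 11.13 in Pb pools against 11.47, 11.47, and 11.67 in control pools, without overlap, and its pooled log2 fold change was -0.42 (SE 0.16, 95% confidence interval -0.77 to -0.07). tbl1xr1a also did not keep 1 sign in all 6 pairs over probes near the last one or with that trend removed. Nor did it with probes combined by median polish.

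pitpnb (NM_200920) moves phosphatidylinositol between membranes. At 72 hpf its log2 intensities were 9.681, 10.037, and 9.854 in Pb pools, against 10.365, 10.212, and 10.196 in control pools. At 120 hpf the values were 8.957, 8.997, and 8.805 in Pb pools and 9.284, 9.877, and 8.850 in control pools. The groups did not overlap at 72 hpf, and at 120 hpf control array 3 was within the range of the Pb arrays. The pooled log2 fold change of pitpnb was -0.41 (SE 0.16, 95% confidence interval -0.75 to -0.06). vat1 (NM_001007051), a vesicle amine transport protein, had pair ratios of -0.81 to -0.01, slc35c1 (NM_001008590), the transporter that brings GDP-fucose into the Golgi, -0.87 to -0.03, and rab10 (NM_001002566), a GTPase of exocytic vesicles, -0.42 to -0.09. heg1 (NM_212968), a receptor at the junctions of endocardium and endothelium, had ratios of -1.09 in pair 1 of 72 hpf and -1.12 in pair 2 of 120 hpf, and -0.28 to -0.03 in the other pairs. tmem37 (NM_213174) had ratios of -0.54 to -0.11, and pcdh2g3 (NM_001024176), a clustered protocadherin of neurons, -0.63 to -0.06. The related targets pcdh2g13 (-0.29) and pcdh2g29 (-0.34) were also lower in all 6 pairs, and signal that these similar genes share on each other's probes was not tested for.

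**Figure D3:**
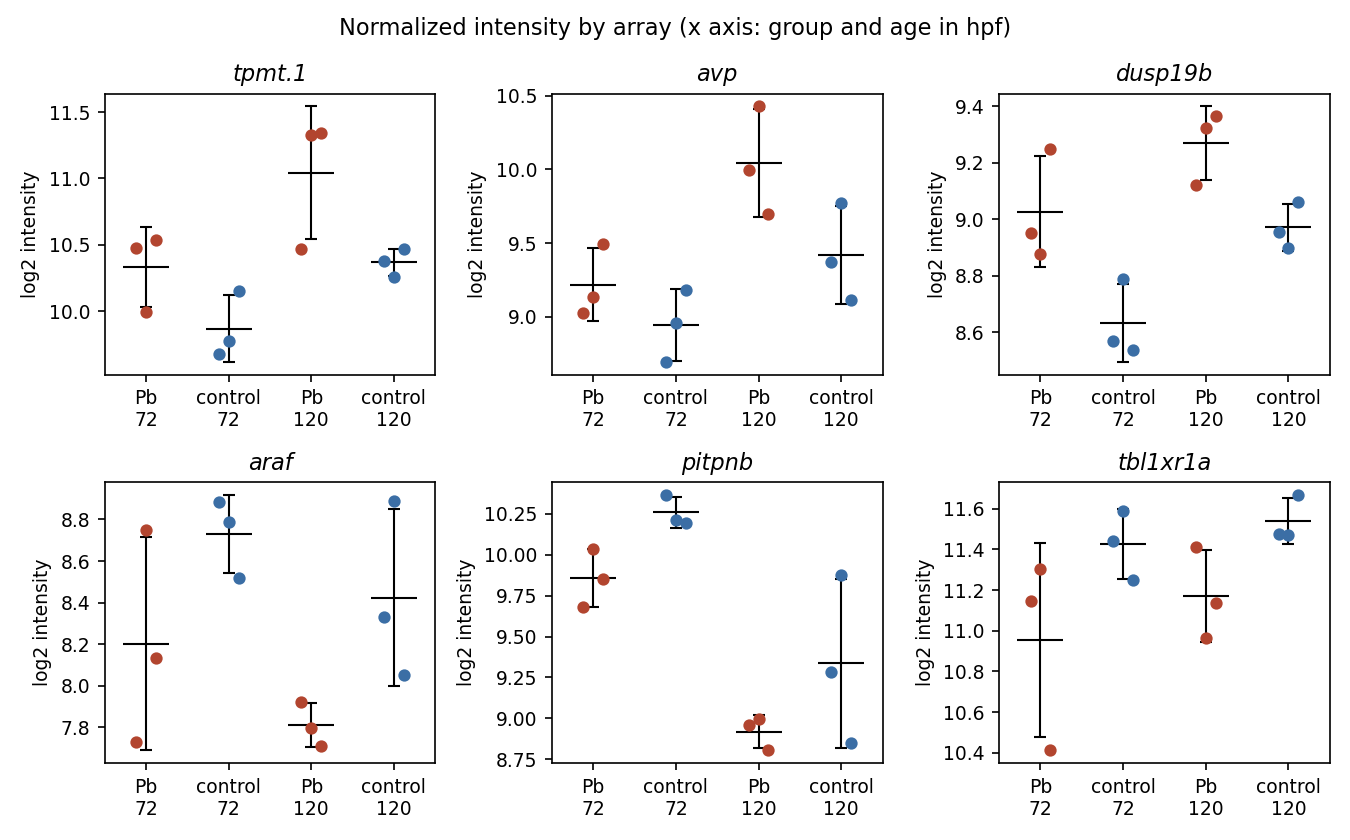
Normalized log2 intensity (y axis) of 6 leading genes on each array, by group (x axis, with age in hpf), with the mean and SD of 3 arrays as bars and whiskers and Pb in red left of control in blue. Of these genes, dusp19b is the one whose Pb and control arrays do not overlap at either age, while tpmt.1 and avp overlap at both.

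The lower group also held muscle and lens genes. casq1b (NM_001076724), the calcium buffer of the sarcoplasmic reticulum, did not overlap between the groups at either age. At 72 hpf its log2 intensities were 12.31, 12.38, and 12.04 in Pb pools, against 12.60, 12.42, and 12.64 in control pools. At 120 hpf the values were 12.59, 12.67, and 12.11 in Pb pools and 12.70, 12.75, and 12.75 in control pools. The pooled log2 fold change of casq1b was -0.29 (SE 0.13, 95% confidence interval -0.57 to -0.01), but with only its probes at most 500 nt from the last one it was 0.00686. tmem37 was likewise above 0 over those probes (0.18). crygm2d5 (NM_001044863), a gamma crystallin of the lens, had 15.10, 14.73, and 13.70 in Pb pools against 15.11, 14.81, and 14.95 in control pools at 72 hpf, and 14.78, 14.95, and 13.84 in Pb pools against 14.92, 15.12, and 15.00 in control pools at 120 hpf. Array 3 of the Pb pools was the low one at both ages, and the other Pb arrays lay within 0.17 of their control partners. cryba2a (NM_001002049), a beta crystallin, had the same pattern, with ratios of -0.03, -0.03, -0.67 at 72 hpf and -0.15, -0.14, -0.56 at 120 hpf. hyal1 (NM_001039997), a hyaluronidase outside the leading 12 that is named for its values, did not overlap at either age and had a log2 fold change of -0.22.

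Of the targets without a gene symbol, those with the smallest unadjusted p among targets of 1 sign in all 6 pairs were as follows. ENSDART00000003994 was higher at 0.90 (SE 0.20) and ZV700S00006452 at 0.92 (SE 0.24), and ENSDART00000062322 was lower at -0.70 (SE 0.18) and OTTDART00000012802 at -0.46 (SE 0.12). Except for ZV700S00006452 at 72 hpf, their Pb and control arrays did not overlap at either age. The first of them had the smallest unadjusted p of all targets (0.000624). On its arrays the log2 intensities at 72 hpf were 13.06, 12.73, and 13.75 in Pb pools and 12.29, 12.31, and 12.40 in control pools. At 120 hpf they were 13.10, 13.70, and 14.00 in Pb pools and 12.87, 12.19, and 12.85 in control pools. What these 4 transcripts encode is not known here.

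Genes of 24 lists of pathways and tissues were then read together, and limma called 0 members of any list. Most listed genes had no named target here. The axon guidance list had 25 targets for 134 genes, the metal list 10 for 57, and the heme list 3 for 21. A list median describes only the measured members, not a whole pathway. Over all targets, 54.7% had a pooled log2 fold change above 0, and the median was 0.02. Axon guidance and cell adhesion genes stood lowest. All 25 measured targets of this list had a value below 0, with a median of -0.31, and 19 were lower at both ages. dab1a (-0.68), the Reelin adaptor that positions migrating neurons, was lower in all 6 pairs. Its ratios were -1.71, -0.31, -0.64 at 72 hpf and -0.04, -1.27, -0.14 at 120 hpf, and its standard error was 0.39. Guidance receptors and adhesion molecules followed, with dscama at -0.57, dcc at -0.51, cntn1a at -0.49, plxna3 at -0.49, itgb1a at -0.43, and nrp2a at -0.32.

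The list was not evenly low over the pairs. Its median was -1.01, -0.18, -0.17 at 72 hpf and 0.27, -0.69, 0.19 at 120 hpf. The lowest values came from pair 1 of 72 hpf and pair 2 of 120 hpf, and with both left out the median was 0.05, above 0. Without Pb array 1 of 72 hpf alone it was -0.11, and without Pb array 2 of 120 hpf alone -0.16. These genes are also long on the array, with the last probe at a median of 3022 nt against 901 nt over all targets. The signal gradient along a target, measured as the slope toward its last probe, was steeper on the Pb than on the control array of these pairs by 0.349 and 0.32, and the slopes of the other pairs differed by -0.206 to 0.0756. With a trend on length and signal removed the median of the list was -0.11, and over probes near the last probe it was -0.15. The cause of the low values was not tested.

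Genes of synaptic transmission had a related pattern. Of 25 measured targets, 5 were above and 20 below 0, the median was -0.24, and 17 were lower at both ages. These targets are also long, with the last probe at a median of 2351 nt against 901 nt over all targets. The postsynaptic scaffold gene dlg2 (-0.25) was lower in all 6 pairs, with ratios of -0.58 to -0.0039. The vesicular glutamate transporter slc17a6b had -0.76, the AMPA receptor subunit gria1a -0.62, the neurexins nrxn2b and nrxn3b -0.62 and -0.45, and the NMDA receptor subunit grin1a -0.22. Without pair 1 of 72 hpf and pair 2 of 120 hpf, gria1a had 0.05, above 0. The ratios of slc17a6b were -2.75, -0.11, -0.94 at 72 hpf and 0.26, -0.73, -0.30 at 120 hpf, so the largest part of its pooled value lay in pair 1 of 72 hpf. The 5 members above 0 held 3 dopamine receptor genes, drd3 (0.10), drd2a (0.07), and drd4a (0.07). The list median was -0.89, -0.06, -0.28 at 72 hpf and 0.07, -0.24, -0.07 at 120 hpf, and without pair 1 of 72 hpf and pair 2 of 120 hpf it was -0.07. Without Pb array 1 of 72 hpf alone it was -0.14. Of the neuronal differentiation list, 4 of 7 targets were above and 3 below 0, with a median of 0.05 that was -0.18 over probes near the last probe, and the neuronal stathmin stmn2b had 0.06.

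The 4 circadian clock targets were below 0 at both ages, with a median of -0.28. Their last probe lay at a median of 3081 nt, against 901 nt over all targets. per3 had -0.67 and per1b -0.41, both period genes of the negative limb of the clock. The ratios of per3 were -2.13, -0.29, -0.26 at 72 hpf and 0.26, -1.61, 0.0022 at 120 hpf, and without pair 1 of 72 hpf and pair 2 of 120 hpf the list median was -0.0035. Calcium signaling held 4 targets above and 6 below 0 with a median of -0.07, and its lowest member was the phospholipase plcg1 (-0.52), whose ratio was -2.28 in pair 1 of 72 hpf and -1.35 in pair 2 of 120 hpf.

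**Figure D4:**
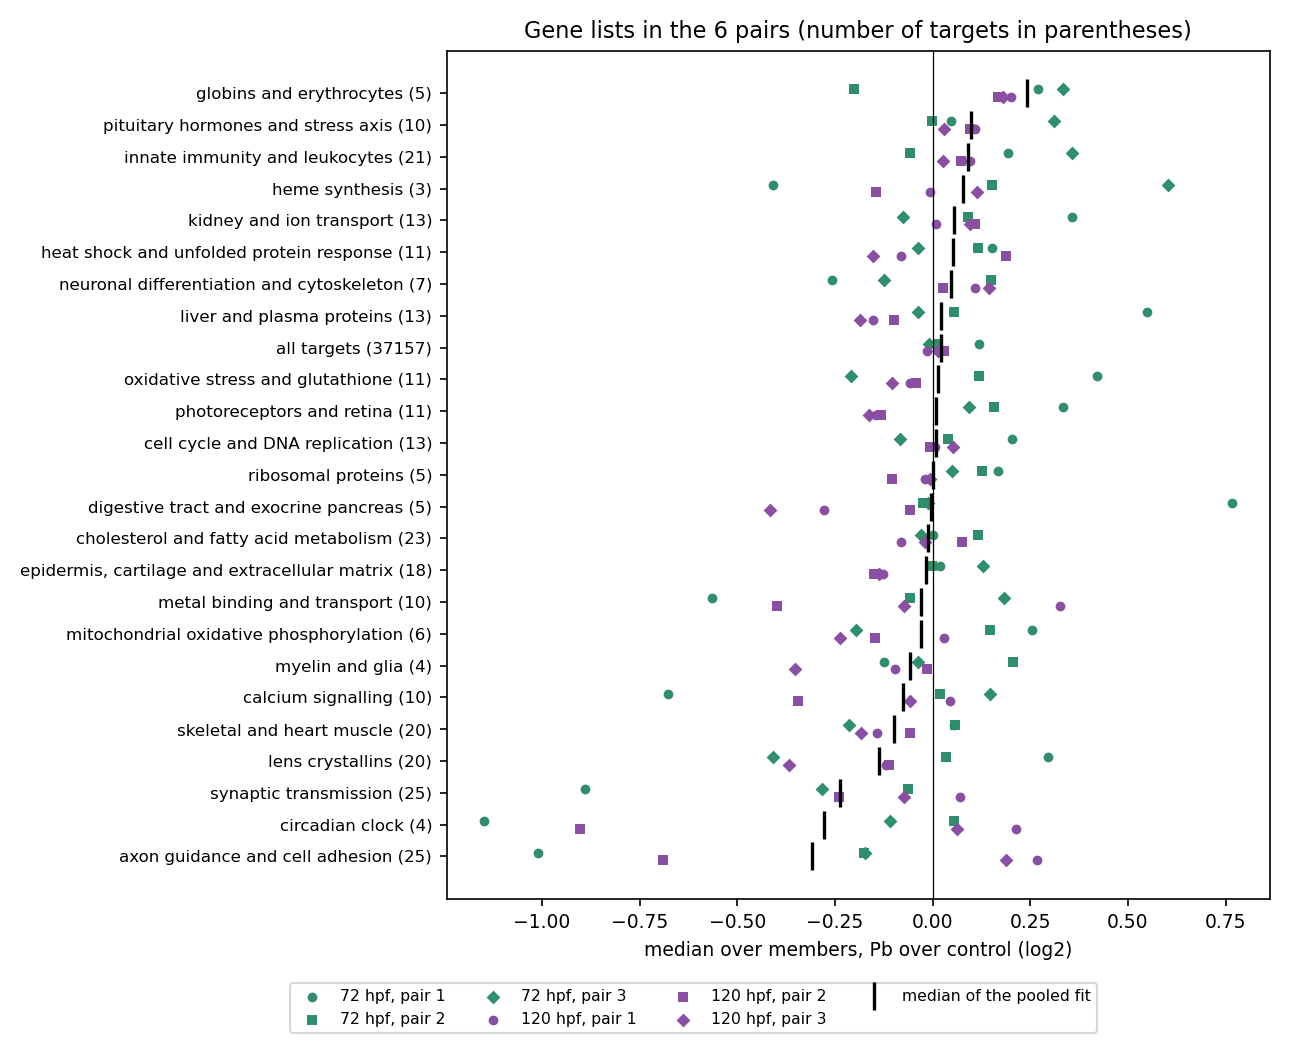
Median log2 ratio of Pb over control over the members of each gene list (rows, with the number of targets) in each of the 6 pairs (72 hpf in green, 120 hpf in purple), with the median of the pooled fit as a bar. The axon guidance, circadian clock, and synaptic lists lie lowest, with points for pair 1 of 72 hpf at -1.01, -1.15, and -0.89, left of those of every other pair.

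The lens crystallin and muscle lists had medians below 0 and were lowest in pair 3 of each age. Of 20 crystallin and lens targets, 14 were below 0 with a median of -0.14, 12 were lower at both ages, and 4 (20%) had 1 sign in all 6 pairs, against 3.82% of all targets. crygm2d5, cryba2a, and crybb1 (-0.12) were the lower ones and crybgx (0.14) the higher one. None of the 4 kept its sign in all 6 pairs under all 5 alternative settings counted below. crygm2d5, cryba2a, and crybb1 each kept it under 2 settings, and crybgx under 3. The share of 20% holds for the listed targets only. lim2.2 (0.26), related by name to the listed lim2.3 and lim2.5, was not on the list. It was higher in all 6 pairs and kept its sign under 4 settings. The list median was 0.30, 0.03, -0.41 at 72 hpf and -0.12, -0.11, -0.37 at 120 hpf, and without pair 3 of both ages it was -0.01. Crystallin signals lay at a median of 13.8 log2 units, and their gamma members are close in sequence, and signal shared between their probes was not tested for. Of 20 muscle targets, 14 were below 0 with a median of -0.10. The calpain capn2a had -0.59 (SE 0.19, 95% confidence interval -0.99 to -0.18) and the muscle transcription factor mef2ca -0.40 (SE 0.16, 95% confidence interval -0.75 to -0.05), each lower in 5 of 6 pairs. Contractile genes lay on both sides of 0. Below it were acte1 (-0.34), mybpc2b (-0.34), mylpfb (-0.19), acta1b (-0.18), tpm2 (-0.11), and tnnc1b (-0.06), with tnni2a.1 (-0.0077) and tnni2a.3 (-0.00085) close to it. Above it were myh6 (0.22), tpm1 (0.15), tpm4a (0.12), myl7 (0.11), and tnni1b (0.10). Of these, myh6, myl7, and tnni1b had mean signals of 7.10, 8.30, and 8.78, below the median of 8.82 over all targets, and tpm1 and tpm4a had 11.2 and 11.5. Without pair 3 of both ages the muscle median was -0.01.

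The lists above 0, other than globins, had smaller medians. Of 21 innate immunity and leukocyte targets, 18 were above 0 with a median of 0.09, 14 were higher at both ages, and 0 were higher in all 6 pairs. The peptidoglycan recognition gene pglyrp5 had 0.31 (SE 0.13, 95% confidence interval 0.03 to 0.58), the cytokine gene il1b 0.30 (SE 0.17, 95% confidence interval -0.07 to 0.67), and il10 0.33, whereas the macrophage receptor csf1ra had -0.15. The median log2 intensity of the list was 6.86, in a range where the median over all targets of the lowest signal quartile was itself 0.146 above 0. Of 10 pituitary hormone and stress axis targets, 8 were above 0, with a median of 0.10. avp led them, followed by the orexin gene hcrt (0.29, ratios -0.30 to 1.01). The list median was 0.31 in pair 3 of 72 hpf and -0.0018 to 0.11 in the other pairs. Its median log2 intensity was 7.68, and hcrt, smtla, smtlb, and lhb, all above 0, were as dim as the immunity list (6.32 to 6.97). Of 13 kidney and ion transport targets, 10 were above 0 with a median of 0.06. The dicarboxylate transporter slc13a3 had 0.44 (SE 0.19, 95% confidence interval 0.03 to 0.86), but -0.24 over probes near the last probe. The kidney injury gene havcr1 had 0.35, with values of 0.60 at 72 hpf and 0.10 at 120 hpf.

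Lists on blood, heme, metals, and stress had small medians, apart from the globins. Of 5 globin and erythrocyte targets, 4 were above 0 with a median of 0.24. The median signal of the list was 6.27 log2 units, and the embryonic globin hbae3, at a mean of 14.20, had -0.06. The list for heme held 3 measured targets, of which ppox (0.08) encodes an enzyme of heme synthesis, and blvra (0.16) and hmox1b (-0.05) act in heme breakdown. hmox1b, an inducible heme oxygenase, had opposite signs at the ages, with ratios of 0.27, 0.25, 0.60 at 72 hpf and -0.77, -0.32, -0.30 at 120 hpf, and limma did not call the difference between the ages (-0.84, adjusted p = 1.00). Metal binding and transport genes had 4 targets above and 6 below 0 with a median of -0.03. These 10 targets held no metallothionein gene. The copper pump atp7a had -0.41, the zinc importer slc39a10 -0.24, and the zinc exporter slc30a1b 0.21. Of 11 oxidative stress and glutathione targets, 6 were above and 5 below 0, with prdx1 at 0.23 and gstp1.1 at -0.17. Of 11 heat shock and unfolded protein targets, 6 were above and 5 below 0, with a median of 0.05. The leading gene hsp70.3 (0.32) was not on this list.

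The other 9 lists had medians between -0.06 (myelin and glia) and 0.02 (liver and plasma proteins). Members with larger values were vtg5 (0.38), a yolk protein precursor of the liver, cyp2aa1 (-0.34), a cytochrome P450, the respiratory chain gene ndufa4a (-0.31), the ribosomal gene rpl37 (0.29), the intestinal peptidase anpepb.1 (0.26), and hsd17b7 (0.19), an enzyme of cholesterol synthesis that was higher in all 6 pairs. Photoreceptor genes had medians above 0 in all 3 pairs of 72 hpf and below 0 in all 3 pairs of 120 hpf. The pooled median of 0.01 thus stood for list medians of opposite sign at the ages. Of the 11 targets, however, 4 were higher and 1 lower at both ages.

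Agreement between the ages was itself uneven over the pairs. Across all 37157 targets, the Pb difference at 72 hpf and that at 120 hpf correlated with r = 0.387 (Spearman's rho = 0.352). Targets are not independent replicates, and no p is given. Between single pairs of different ages the correlation ran from -0.484 to 0.662, and between pairs of the same age from -0.401 to 0.289. The highest values joined pair 1 of 72 hpf with pair 2 of 120 hpf (0.662) and pair 3 of 72 hpf with pair 3 of 120 hpf (0.618). Pairs of the same age were thus less alike than these. Without pair 2 of 120 hpf the correlation between the ages was -0.0139, and targets with opposite signs at the ages in all 5 pairs left numbered 2534, against 2424 with 1 sign. Without pair 3 of 72 hpf it was 0.125, with 2664 targets of opposite and 1994 of equal sign. Leaving out any other single pair gave 0.375 to 0.518. The pairs also differed in the size of their ratios, with SDs over targets of 0.662, 0.266, and 0.572 at 72 hpf and 0.252, 0.488, and 0.404 at 120 hpf, so the larger ratios came from pairs 1 and 3 of 72 hpf and pairs 2 and 3 of 120 hpf.

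The sign of the difference went with signal and length. Targets higher in all 6 pairs had a median log2 intensity of 7.96 and a last probe at 750 nt, and those lower in all 6 pairs had 9.93 and 1210.5 nt, against 8.82 and 901 nt for all targets. In the lowest quartile of signal 3.92% of targets were higher and 0.312% lower in all 6 pairs, and in the highest quartile 1.56% were higher and 2.44% lower. The rank correlation of the ratio with mean signal was -0.516 in pair 3 of 72 hpf and -0.329 in pair 3 of 120 hpf, and -0.0553 to 0.222 in the other pairs. The part of signal in the results above was not tested further than by removing a trend on length and signal, after which 669 of the 1419 targets (47.1%) still had 1 sign in all 6 pairs. Under median polish 659 (46.4%) did, with probes near the last probe 760 (53.6%), and with the values as deposited 1315 (92.7%). Under all 5 of these settings, median centering included, 218 of the 1419 targets (15.4%) kept their sign in all 6 pairs, 149 higher and 69 lower. Both arrays of a pair had nearly equal medians as deposited, and most signs stayed with the deposited and the median-centered values. Among the targets that lost theirs there were crygm2d5, cryba2a, and hsd17b7. These settings add little to the other 3. Of the 218 targets, 10 were named. The higher ones among the leading genes were tpmt.1, avp, pou4f3, cidec, and ppp1r14d, and the lower one was vat1, and the others were relt, trip4, ip6k2b, and atp6v0a1a.

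**Figure D5:**
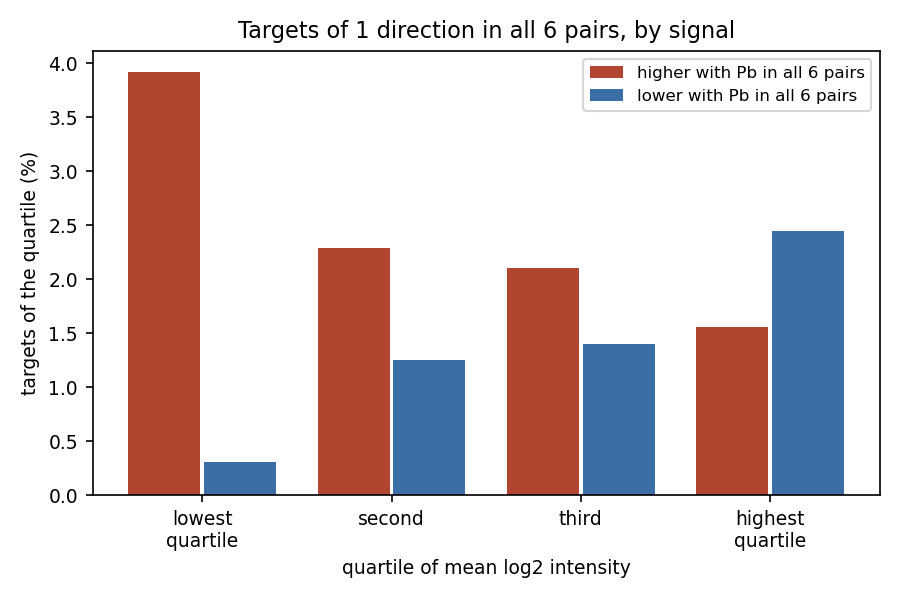
Share of targets (y axis, percent of the quartile) that were higher (red) or lower (blue) with Pb in all 6 pairs, by quartile of mean log2 intensity (x axis). The share of higher targets is largest in the lowest quartile (3.92%) and smallest in the highest (1.56%), and the share of lower targets runs the other way (0.312% and 2.44%).

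The criteria of the methods were also carried over to both ages. A t-test p of at most 0.1 together with a mean change of at least 1.5-fold was met by 193 targets (0.519%), 34 (0.0915%) higher and 159 (0.428%) lower. This t-test is the one with somewhat too small p values, so the count can be too large. A change of at least 1.5-fold with 1 sign in each of the 6 pairs was met by 0 targets. The test of the difference between the ages called 0 of 37157 targets, with 75 (0.202%) at an unadjusted p below 0.05.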

How the data were processed

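RNA of 12 pools of whole larvae was measured on as many one-color NimbleGen arrays (3 per group). The authors deposited 1 linear intensity per probe and array. The methods name quantile normalization, and the submitters' processing notes name RMA without a version. The medians of the deposited intensities were nearly equal within each same-numbered Pb and control pair and differed across pairs. All per-sample columns were used. The number of arrays limits the precision.

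After a log2 transform, quantile normalization was run across the 12 arrays together and each target was given the mean of its probes, with no further background subtraction and no filter. Targets were named through the platform annotation (2626) and current RefSeq transcripts (37), and 34494 stayed unnamed. The software was R 4.3.3 with limma 3.58.1, statmod 1.5.0, and the package data.table (version 1.17.8). lmFit and eBayes were fitted with Pb and age as terms, p values were adjusted by Benjamini-Hochberg over all 37157 targets at 0.05, and the fit was tested on simulated data, where it recovered 56 of 100 targets changed by 1 log2 unit and 98 of 100 changed by 2 units, with 7 false calls over both, and made 0 calls with no target changed. Named genes were, per direction, the 12 with the smallest unadjusted p among named targets of 1 sign in all 6 pairs, up to 3 per gene list by p, and 2 unnamed targets per direction. Other genes named with values were chosen after these were seen. The members, the 24 lists, and the tests were chosen with earlier results of these data known. Alternatives were a replicate block, a model of 4 group means, median polish, probes within 500 nt of the last probe, the deposited values unscaled, centering on medians, leaving out the dimmest 25% or 50% of targets, a length and signal trend removed, a variance trend, robust eBayes, array weights, the methods' t-test, each array or pair left out, and, chosen after seeing the data, sets of 2 pairs left out. p values measure the spread between pools measured on 1 array each, so differences between pools and between arrays are both in it.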

Additional observations from a re-analysis of the deposited data

Results flagged for a closer look

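Several gene lists had 1 pair far from the other 5, and with this rule about 1 in 20 groups of values is picked out by chance. In pair 1 of 72 hpf, the median log2 ratio of Pb over control was 0.767 for digestive tract and exocrine pancreas genes (-0.416 to -0.0112 in the other pairs), 0.55 for liver and plasma protein genes (-0.185 to 0.0562), -0.89 for genes of synaptic transmission (-0.284 to 0.0695), and 0.12 over all targets (-0.0138 to 0.0285). In pair 2 of 72 hpf it was -0.201 for globins (0.167 to 0.335 elsewhere). In pair 3 of 72 hpf it was 0.31 for pituitary hormones (-0.0018 to 0.11), and the single gene rnf34a had 1.06 (0.151 to 0.313).

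A few effects had opposite directions at the ages. Averaged over the pairs of an age, the pair medians of photoreceptor genes were 0.34 lower at 120 hpf than at 72 hpf (-0.34). Those of ribosomal protein genes were 0.158 lower (-0.158). In each list every pair of an age lay on one side of 0, and these differences were not tested. For hmox1b the Pb effect differed by -0.837 between the ages, with an adjusted p of 1.00 in limma.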

How the results depend on the processing

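limma called 0 targets for the pooled Pb effect and for the difference between the ages under every alternative run. At an unadjusted p below 0.05 the pooled count of 719 was 159 with the values as deposited (23 higher, 136 lower), 331 with median centering (50 and 281), 420 (141 and 279) and 299 (81 and 218) with the lowest 25% and 50% of targets left out, 813 with array weights (325 and 488), 1266 with the methods' t-test, and 375 (without Pb array 3 of 72 hpf) to 2400 (without Pb array 2 of 72 hpf) with 1 array left out. The targets of 1 sign in all pairs (1419) numbered 697 with the lowest 50% left out, where fewer targets were counted, and 1994 to 3514 with 1 pair left out, where fewer pairs had to agree. With pair 1 of 72 hpf and pair 2 of 120 hpf left out they numbered 6010 (3077 of opposite sign at the ages), with pair 3 of both ages left out 4223 (4111 opposite), and with pair 2 of 72 hpf and pair 1 of 120 hpf left out 7114 (1738 opposite). These sets were chosen after seeing the data. The correlation between the ages ran from -0.0139 (without pair 2 of 120 hpf) to 0.518 with 1 pair left out, and the cause was not tested. The first criterion of the methods alone gave 193 targets, and both together gave 0, or 0 to 1 with 1 pair left out. The count without overlap at either age (63) was 4 with the values as deposited and 17 with median centering.

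The fit held no block for the array numbers, because the comparison was set as all Pb against all control arrays with age as covariate. The block was run as an alternative. The labels name nothing that same-numbered arrays share, and number 3 of 72 hpf fell short of a correlation of 0.1. The pair ratios are a description of arrays with nearly equal deposited medians. Deviations from the group means of same-numbered Pb and control arrays correlated across targets at 0.452, 0.402, and -0.069 at 72 hpf and 0.548, 0.434, and 0.268 at 120 hpf. With the replicate block limma called 0 targets, with a smallest adjusted p of 0.743 and 1972 targets (5.31%) at an unadjusted p below 0.05, 1016 higher and 956 lower, and the median standard error was 0.143. For dab1a the standard error was 0.22 with the block, against 0.39 without it (adjusted p = 0.743 and 0.997 in limma).

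Of 2509 comparisons of named genes with an alternative, 2460 kept their direction and 49 reversed. Many could not reverse, so the count is not a measure of robustness. The replicate block, the 4 group means, the variance trend, and robust eBayes give the log2 fold change of the main fit. So do the methods' t-test and leaving out dim targets. The leading genes, chosen for 1 sign in all 6 pairs, could not reverse with pairs left out. The reversals had log2 fold changes as follows. Over probes within 500 nt of the last probe, these were casq1b (0.00686), tmem37 (0.176), slc13a3 (-0.24), nrp2a (0.0778), rpl6 (-0.162), eomesb (-0.386), cdx1b (0.00206), msrb2 (0.145), cacnb4b (0.123), guca1ab.1 (-0.186), erbb3b (0.0492), acat1 (0.198), and ppox (-0.278). With array weights they were crmp1 (0.00222), hlfa (0.295), cacnb4b (0.0402), slc39a10 (0.025), atp7a (0.0881), acat1 (0.0289), calr (-0.0486), mad2l2 (-0.0724), and rfc2 (-0.0365), and with median polish rpl6 (-0.0185). With pair 1 of 72 hpf and pair 2 of 120 hpf left out they were hpdb (-0.0193), itgb1a (0.0226), hlfa (0.327), gria1a (0.0532), plcg1 (0.125), cabp1b (0.0672), cacnb4b (0.0189), atp7a (0.115), acat1 (0.0515), hspb15 (-0.0505), and calr (-0.0188). With pair 3 of both ages left out they were smtla (-0.0462), prss59.1 (0.107), prdx1 (-0.012), guca1ab.1 (-0.0306), ndufa4a (0.0991), cryabb (-0.0688), and ppox (-0.0824). Leaving out 1 array gave -0.33 to 0.0971 for hlfa, -0.299 to 0.000872 for prss59.1, -0.0117 to 0.183 for ppox, -0.228 to 0.198 for hmox1b, and -0.00798 to 0.12 for rpl6. The cause was not tested.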

Other observations

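Beyond the leading genes, the named targets of 1 sign in all 6 pairs held further roles. Higher with Pb were wnt4 (0.23), a Wnt ligand, slc47a2.1 (0.36), an efflux transporter of organic cations, folr (0.29), a folate receptor, tnni4b.3 (0.37), a troponin I, cenpl (0.32), a kinetochore protein, and lyar (0.19) and polr1d (0.27), which act in the nucleolus and in RNA polymerase. Lower with Pb were acsl1b (-0.26), which activates fatty acids, mat2ab (-0.23), a methionine adenosyltransferase, ppp3ccb (-0.19), a catalytic subunit of calcineurin, pdpk1b (-0.24), a kinase upstream of Akt, and fstl5 (-0.16). limma called none of them (0 of 37157 targets, 719 at an unadjusted p below 0.05), and they were chosen after their values were seen.

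The 20 named targets with a pooled difference of at least 1.5-fold were all lower with Pb, as were 572 of the 622 such targets overall. bcl9, a coactivator of Wnt signaling, had -1.01 (SE 0.47), the deubiquitinase gene usp9 -0.75 (SE 0.38), the sodium channel gene scn1lab -0.62 (SE 0.29), the focal adhesion kinase gene ptk2aa -0.64 (SE 0.38), and the Mediator subunit gene med12 -0.62 (SE 0.36). Their ratios were -3.01, -2.40, -1.63, -2.23, and -2.13 in pair 1 of 72 hpf and -2.27, -1.69, -1.57, -1.50, and -1.70 in pair 2 of 120 hpf, but 0.46, 0.44, 0.38, 0.47, and 0.46, above 0, in pair 1 of 120 hpf. Of the 20, dab1a was lower in all 6 pairs.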
